A study of Mus musculus with 40 samples.

Results

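Reln and a set of genes that mark inhibitory interneurons were followed across the cortex of mice given memantine or saline and then high-frequency head impact (HF-HI) or a sham procedure. The set held 7 symbols (Reln, Gad1, Gad2, Slc32a1, Pvalb, Sst and Npy), and its members were all transcripts of the expression table that belong to those symbols in RefSeq, added up per gene. They came to 7 transcripts of 6 genes, out of 6831 transcripts and 5875 gene sums in all, and Npy was not analysed here. The set was proposed with expression values of these libraries already known, and which of the comparisons it was drawn from was not recorded. Group differences of its members are therefore given as descriptions with their errors and without a p-value of their own.

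Reelin, the product of Reln, is a large secreted glycoprotein that guides neuronal positioning during cortical development. In the adult cortex it is made mainly by GABAergic interneurons, and it acts through the receptors Apoer2 (gene Lrp8) and Vldlr and the adaptor Dab1 on synaptic plasticity and NMDA receptor function. Gad1 and Gad2 encode the enzymes that make GABA from glutamate, and Slc32a1 encodes the transporter that loads GABA into synaptic vesicles, so the 3 genes mark inhibitory neurons as a whole. Pvalb encodes parvalbumin, a calcium buffer of fast-spiking basket and chandelier cells, and Sst encodes somatostatin, the peptide of interneurons that target dendrites. GABAergic projection neurons of the striatum also express Gad1, Gad2 and Slc32a1.

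RNA was sequenced from the cortex of male C57BL/6 mice (C57Bl/6J in the study's methods) at 12 weeks of age, 24 h after the last impact, and all 4 groups held 10 libraries. Saline sham mice received saline and the sham procedure, saline HF-HI mice received saline and repeated head impacts, memantine sham mice received memantine and the sham procedure, and memantine HF-HI mice received memantine and the impacts. Memantine, an open-channel blocker of the NMDA receptor, or saline was injected intraperitoneally 1 h before each session. The comparisons ask whether impact changed these genes, and whether it did so when NMDA receptors were blocked beforehand.

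Summed normalised counts per library ran from 13322404 to 17529644, and each library correlated with the others at a median r of 0.9328 to 0.9608, so that no library stood apart. Nothing in the labels beyond the group and a replicate number separates the libraries. The tissue was whole cortex, in which fewer cells of a type and less RNA per cell cannot be told apart. Of the markers of cortical excitatory neurons 13 of 15 were in the table. Of 8 markers of Cajal-Retzius cells, which would give Reln another source, none (0) had a value. The table held only transcripts with a mean count of at least 549.2, so a missing marker does not show that its cells were absent. Of 18 striatal markers 12 had a value, and Pde10a alone reached a mean of 11199.6 normalised counts in the saline sham group.

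Reln was the only member with more than 1 transcript. It lies on chromosome 5 (mm10, 21884454 to 22344705), and its transcripts differ in coding sequence by a 6-base microexon at chr5:21891562-21891567, exon 64 of 65 in NM_011261, which NM_001310464 skips. The stretch around that junction is shown because a read must cross it, or lie in the ends described next, to tell the transcripts apart. It is written 5′ to 3′ on the strand of the transcript with 12 bases on either side, and capitals mark the microexon.
NM_011261: ggaggtcgtcctAGTAAGcactcgcaaaca
NM_001310464: ggaggtcgtcctcactcgcaaaca

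NM_011261 is also 796 bases longer at its 3′ end and 12 bases longer at its 5′ end. All 10885 bases of NM_001310464 are shared with NM_011261, of which they make up 93.04%, and both end their reading frame at the same stop codon. Assignment of reads between the transcripts is therefore uncertain, and the gene sum was taken as the measure of Reln.

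The other members had 1 transcript each. Gad1 (NM_008077) lies on chromosome 2 from 70561303 to 70602014, Gad2 (NM_008078) on chromosome 2 from 22621015 to 22693877 and Slc32a1 (NM_009508) on chromosome 2 from 158607260 to 158615747. Pvalb (NM_001330686) lies on chromosome 15 from 78191112 to 78206400 and Sst (NM_009215) on chromosome 16 from 23889573 to 23891342. The promoter of Sst is shown because it was the only one among 7 RefSeq promoters of the 6 genes that held the cAMP response element, TGACGTCA, in the window from 250 bases before to 50 bases after a transcript start. The element, in capitals, lies 48 to 41 bases before the start in chr16:23890795-23891094 (RefSeq, GRCm38.p6, minus strand).
Sst promoter: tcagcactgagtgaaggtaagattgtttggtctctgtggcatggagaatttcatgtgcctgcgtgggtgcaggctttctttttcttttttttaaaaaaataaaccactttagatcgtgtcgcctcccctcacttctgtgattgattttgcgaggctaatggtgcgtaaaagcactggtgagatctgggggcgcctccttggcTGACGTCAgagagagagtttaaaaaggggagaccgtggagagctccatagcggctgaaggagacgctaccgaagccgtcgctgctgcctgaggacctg

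On both strands TGACGTCA occurred in 1.79% of 32851 mouse promoter windows of this kind. The AP-1 motif TGANTCA occurred in 7.808% of them and the homeodomain core TAATTA in 5.291%, and neither was found in the windows of the 6 genes. The 3 motifs are given as a description of the letters in these windows only.

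Levels were compared between genes per kilobase of transcript. Gad1 was the most abundant member, at 2135.1 ± 118.5 normalised counts per kilobase (SD over 40 libraries), and none of its libraries fell as low as the highest of Sst, which was at 1166.1 ± 127.3. Pvalb followed at 871.7 ± 101.3, with a range that met the lower end of that of Sst. Gad2, at 768.2 ± 100.8, did not differ from Pvalb beyond their spread, and the lowest levels were those of Reln at 328.2 ± 29.03 and Slc32a1 at 311.6 ± 41.95, which did not differ beyond their spread. Within groups the gene sum of Reln varied by 6.987% and that of Gad1 by 5.364% (coefficient of variation), while Slc32a1, Gad2, Pvalb and Sst varied by 9.9% to 13.09%. Counting error at these depths came to between 1.182% for Gad1 and 3.449% for Sst, so most of the spread lay between libraries and not in the counts.

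Reln, the ligand, was lower after impact under saline. Its normalised count in the saline sham group ran from 3526.6 through a median of 4113.9 to 4428.8 (mean 4079.0 ± 306.4 SD, n = 10), and in the saline HF-HI group from 3076.3 through 3560.3 to 4013.8 (3567.7 ± 236.5). All 10 saline HF-HI libraries lay below the mean of the sham group and 4 of them below its lowest library, although the ranges overlapped. The difference was -0.19 ± 0.04 on the log2 scale (SE, 95% confidence interval -0.28 to -0.10), or 12.48% lower.

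Under memantine the sham group ran from 3448.1 through a median of 3786.4 to 4132.5 normalised counts of Reln (3762.0 ± 205.2), and the HF-HI group from 3169.1 through 3743.2 to 4036.1 (3667.0 ± 292.3). These ranges lay largely on top of each other, and the log2 difference was -0.04 ± 0.04 (95% interval -0.13 to 0.05). The memantine sham group was itself below the saline sham group, by a log2 difference of -0.11 ± 0.04 (-0.21 to -0.02) with 9 of 10 libraries under the saline sham mean. Between the HF-HI groups memantine against saline gave 0.04 (-0.05 to 0.13).

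**Figure D1:**
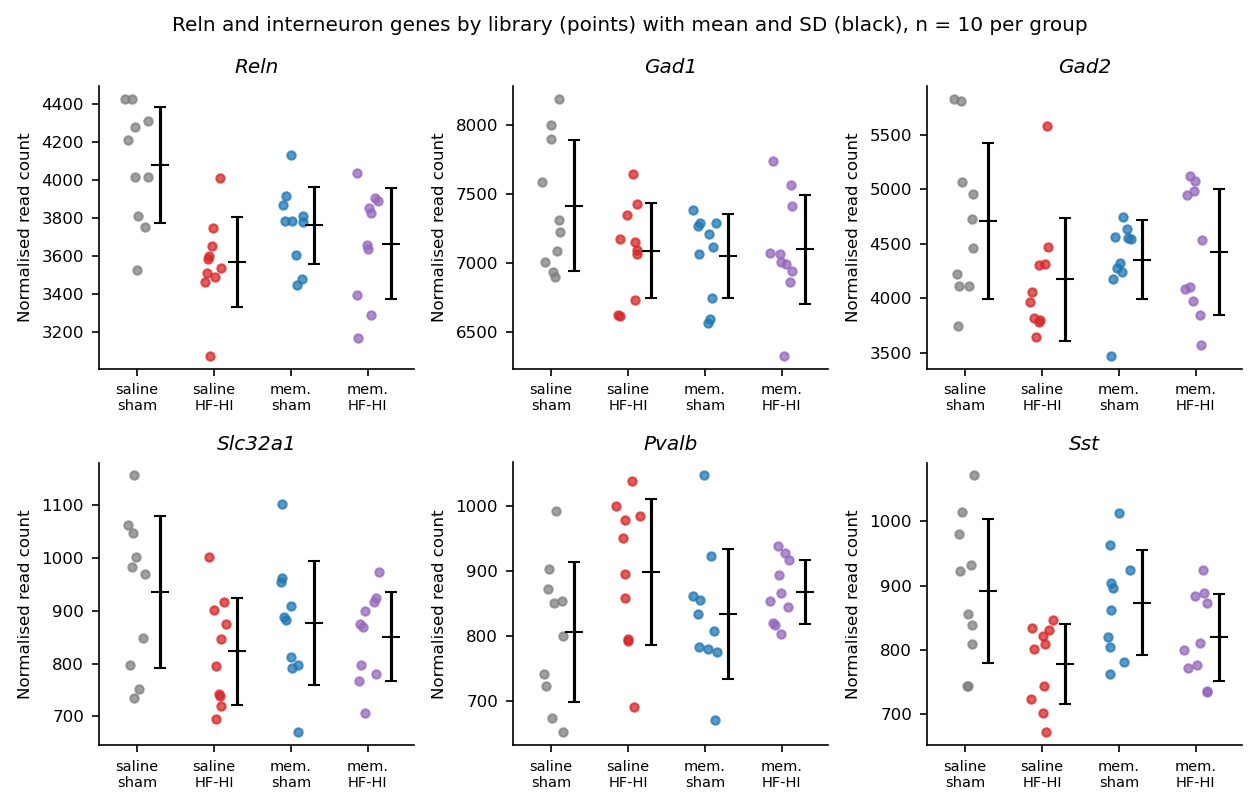
Normalised read counts (vertical axes, not starting at 0) of the 6 genes in the 4 groups of 10 libraries, with one point per library and the mean ± SD in black beside them; mem. stands for memantine. Reln and Sst of the saline HF-HI group sit low against saline sham, Pvalb sits high, and the ranges of all groups overlap.

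The impact difference of Reln was more negative in saline than in memantine, by 0.15 ± 0.06 log2 units (95% interval 0.02 to 0.28). With the mean of striatal markers as a covariate, described further on, it was smaller, at 0.10 ± 0.06. Of all 5875 gene sums 0 passed an adjusted limma p of 0.1 for this difference of differences. Reln was chosen on values of these libraries, so neither estimate is read as a result. For the remaining members the same difference of differences had an interval that included 0, from -0.09 for Pvalb (-0.30 to 0.12) to 0.19 for Gad2 (-0.04 to 0.41). An interval that includes 0 does not show that impact acted alike under saline and memantine.

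The transcripts of Reln moved against each other from library to library. NM_011261 varied by 20.46% within groups and NM_001310464 by 62.43%, against 6.987% for their sum, and after removal of the group means their counts correlated at r = -0.8986 over 40 libraries, which share the reads being divided. NM_001310464 took from 0.0% to 52.35% of the Reln count, was at 0 in 1 library and exceeded NM_011261 in 1. The mean of NM_011261 was 2819.8 ± 499.1 in saline sham and 2877.6 ± 581.3 in saline HF-HI. In the variance-stabilised values that the authors deposited, the difference of this transcript alone was 0.01 ± 0.08. That scale compresses differences, with -0.07 for Sst there against -0.19 on log2 counts. The size of this value is therefore not set against that of the gene sum. The mean of NM_001310464 was 1259.2 ± 668.9 in saline sham and 690.1 ± 576.0 in saline HF-HI. Thus the lower sum lay in the transcript that can be told apart least well, and the more abundant transcript taken alone had the opposite sign.

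**Figure D2:**
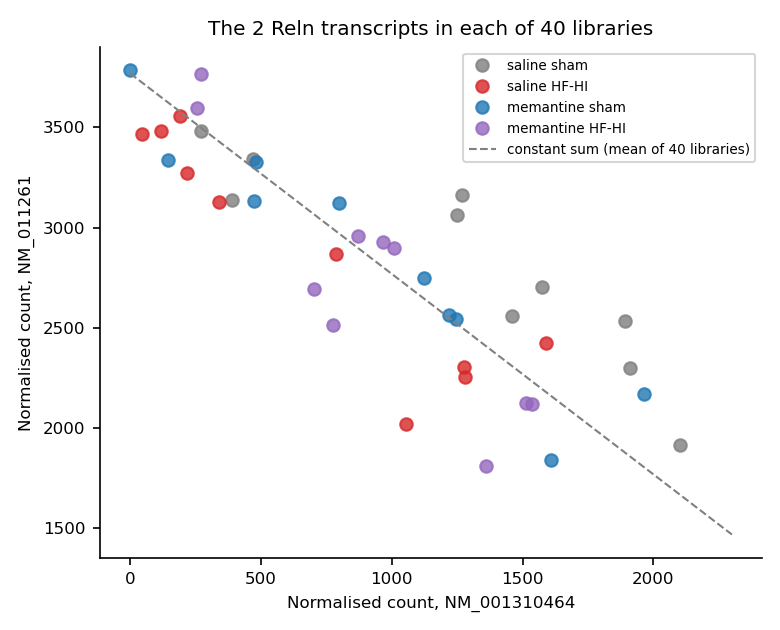
Normalised counts of the Reln transcripts NM_001310464 (horizontal axis) and NM_011261 (vertical axis) in each of 40 libraries, coloured by group, with a dashed line on which their sum equals the mean over all libraries. The points follow the line (r = -0.8986 after removal of group means), and NM_001310464 reaches 0 in 1 library.

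The GABA-synthesising enzymes and the vesicular transporter also had lower means in saline HF-HI. Gad1 ran from 6899.8 through a median of 7266.9 to 8186.1 normalised counts in saline sham and from 6620.3 through 7120.2 to 7643.5 in saline HF-HI, a log2 difference of -0.06 ± 0.03 whose interval included 0 (-0.13 to 0.0052). Gad2 ran from 3744.7 through 4592.0 to 5828.2 in saline sham and from 3644.1 through 4012.2 to 5576.2 in saline HF-HI, a log2 difference of -0.17 ± 0.08 (-0.33 to -0.0097). In Gad2 9 of 10 HF-HI libraries lay below the sham mean and 1 lay close to the top of the sham range.

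Slc32a1 ran from 734.1 through a median of 976.2 to 1156.8 normalised counts in saline sham and from 695.6 through 820.3 to 1002.3 in saline HF-HI. The ranges overlapped over most of their length, 9 of 10 HF-HI libraries lay below the sham mean, and the log2 difference was -0.18 ± 0.08 (-0.34 to -0.011). Under memantine the impact differences of Gad1, Gad2 and Slc32a1 were 0.0085 (-0.06 to 0.08), 0.02 (-0.14 to 0.18) and -0.04 (-0.20 to 0.13) log2 units. The memantine sham medians were 7160.5, 4431.1 and 885.1 normalised counts and the memantine HF-HI medians 7036.3, 4319.2 and 872.5 for the same 3 genes, so each pair of groups was close. Memantine sham lay below saline sham in Gad1 by a log2 difference of -0.07 (-0.14 to -0.0018), with 10 of 10 libraries under the saline sham mean, and in Gad2 and Slc32a1 by -0.10 and -0.09 with intervals that included 0.

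The markers of interneuron classes went opposite ways. Sst ran from 743.3 through a median of 889.0 to 1071.7 normalised counts in saline sham and from 672.1 through 804.7 to 846.9 in saline HF-HI. All 10 HF-HI libraries lay below the sham mean and 3 below the lowest sham library, and the log2 difference was -0.19 ± 0.06 (-0.31 to -0.06). Pvalb ran from 651.4 through 825.7 to 993.0 in saline sham and from 690.4 through 923.3 to 1038.3 in saline HF-HI. Here 7 of 10 HF-HI libraries lay above the sham mean, and the log2 difference was 0.16 ± 0.07 (0.011 to 0.30).

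Under memantine Sst ran from 763.1 through a median of 879.4 to 1013.3 normalised counts in sham and from 734.3 through 805.6 to 924.7 in HF-HI, a log2 difference of -0.09 (-0.22 to 0.04). Pvalb ran from 670.6 through 820.9 to 1047.8 in memantine sham and from 802.5 through 859.9 to 938.7 in memantine HF-HI, a log2 difference of 0.07 (-0.08 to 0.21). Both genes kept the sign they had under saline, at a smaller size, and their intervals included 0. Between the HF-HI groups, memantine against saline, Sst differed by 0.07 and Pvalb by -0.04 log2 units, again with intervals around 0.

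Across the set, 5 of 6 members were under the unadjusted limma p of 0.05 in saline HF-HI against saline sham, 1 higher and 4 lower, where 10.7% of all 5875 gene sums were (5.14% higher and 5.58% lower). Reln was also under an adjusted p of 0.1, where 0.357% of gene sums were. In memantine HF-HI against memantine sham 0 of 6 members were under the unadjusted threshold, with a background of 4.37%, and between the HF-HI groups, memantine against saline, 0 of 6, with a background of 3.68%. In memantine sham against saline sham 2 of 6 were, Reln and Gad1, both lower, with a background of 7.9% (4.09% lower). For the difference of the impact effects 1 of 6 was, Reln, with a background of 3.59% (1.82% higher). Because the members were chosen on values of these libraries, nothing is read from these counts, and the comparisons share their sham or HF-HI groups. Leaving out 1 library at a time gave between 2 and 6 members in the first comparison. It was 2 without saline sham replicate 6 or 9 or saline HF-HI replicate 2, 7 or 9, and 3 without saline sham replicate 2, 5, 7 or 10 or saline HF-HI replicate 5 or 6. The adjusted call of Reln was lost without saline sham replicate 2, 5, 8 or 10 and without saline HF-HI replicate 3, 4, 5, 7 or 9.

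Markers of striatal projection neurons, which are GABAergic, moved in the same direction as these genes, except for Pvalb. All 12 that had a value were lower on average in saline HF-HI than in saline sham. Of them 8 passed the unadjusted threshold, where 10.7% of all gene sums did (5.58% lower), and 0 the adjusted one. Their median log2 difference was -0.18 against -2.1e-05 for all gene sums. Pde10a, a phosphodiesterase of these neurons, went from 11199.6 ± 1555.9 to 9398.5 ± 1057.4 normalised counts (adjusted limma p = 0.2496) and Adcy5, their main adenylyl cyclase, from 6052.2 ± 801.9 to 5124.8 ± 500.9 (adjusted p = 0.2793). The summed count of the 12 markers ran from 40697.8 to 64864.0 in saline sham, 40498.2 to 56241.2 in saline HF-HI, 43028.2 to 64699.7 in memantine sham and 37587.9 to 59013.2 in memantine HF-HI. No listed marker with a value was at 0, and 0 of 12 passed in memantine HF-HI against memantine sham, where 4.37% of all gene sums did. The defining markers Drd2, Adora2a and Tac1 had no value, whereas Drd1 went from 1584.5 ± 385.4 to 1453.4 ± 211.5 without passing the threshold (adjusted p = 0.8817).

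With the striatal marker mean as a covariate, the saline impact difference of Reln was -0.13 ± 0.04 and that of Sst -0.12 ± 0.06 log2 units. Those of Gad2, Slc32a1 and Gad1 went to -0.07 ± 0.07, -0.04 ± 0.06 and -0.04 ± 0.03, and that of Pvalb to 0.09 ± 0.07. Each of these saline impact differences kept its sign, and Slc32a1 shrank most. Under the unadjusted threshold was 1 of 6 members, Reln, where 6.01% of gene sums were. Because the members were chosen on values of these libraries, nothing is read from that call either. The part of striatal tissue in the group differences was not tested beyond this covariate fit.

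**Figure D3:**
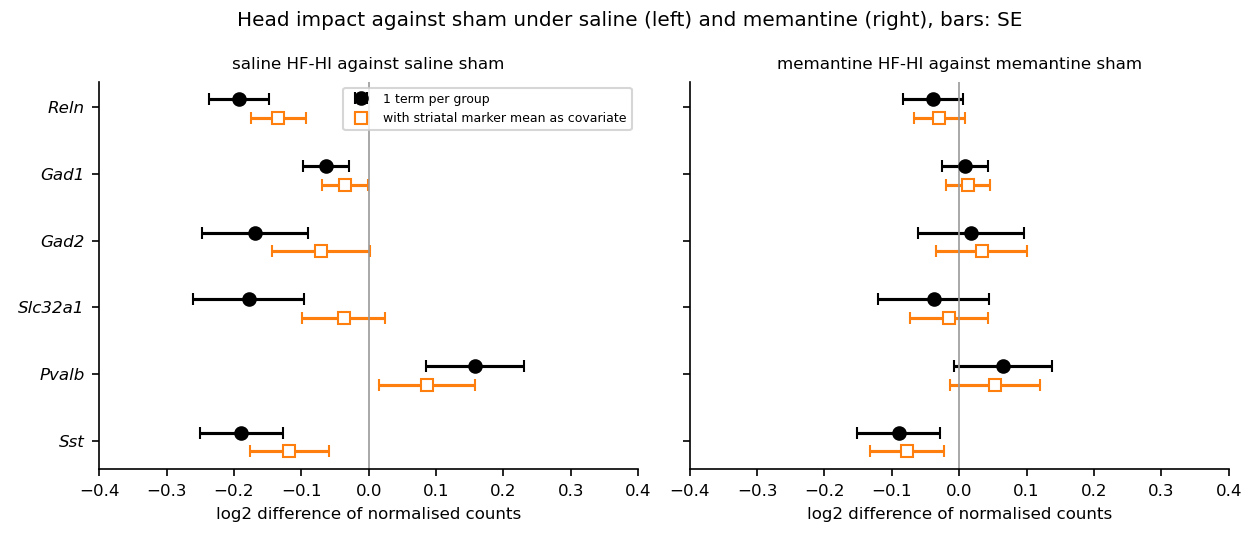
Log2 differences of HF-HI against sham (horizontal axes) for the 6 genes under saline (left) and memantine (right), filled points from the fit with 1 term per group and open squares with the striatal marker mean as a covariate; bars are SE. Under saline the open squares lie nearer 0 than the points for each gene, from -0.18 to -0.04 for Slc32a1 and from -0.19 to -0.13 for Reln.

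Library by library, with group means removed, the 3 genes common to all GABAergic neurons varied together. Gad1 and Gad2 correlated at r = 0.7925 (Spearman's rho 0.7902, permutation p = 1e-05, the smallest that 100000 permutations can give, adjusted p = 7e-05 over 21 relations), and r was 0.7476 without the 2 libraries farthest from the median of Gad1. Gad2 with Slc32a1 gave r = 0.7015 (rho 0.6874, permutation p = 1e-05, adjusted p = 7e-05, r = 0.637 without the farthest 2). Within each of the 4 groups both correlations were above 0.

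Reln varied less with these genes than with Sst. Its r was 0.2171 with Gad1, 0.296 with Gad2 and 0.2772 with Slc32a1, and the permutation p, adjusted over the 21 relations, was 0.236, 0.122 and 0.122. With Sst it was 0.5683 (rho 0.6098, permutation p = 0.00028, adjusted p = 0.00118), and 0.664 without the 2 libraries farthest from the median of Reln. That relation was uneven between groups, from 0.07137 in saline HF-HI to 0.8916 in saline sham. With Pvalb it was -0.4656 (rho -0.5285, permutation p = 0.00265, adjusted p = 0.00556), below 0 in all 4 groups, and -0.4162 without the farthest 2. Whether the strengths differ from each other was not tested.

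The striatal marker mean correlated with Slc32a1 at r = 0.7304 (rho 0.7053, permutation p = 1e-05, adjusted p = 7e-05, r = 0.7143 without the farthest 2) and with Reln at r = 0.5565 (rho 0.6126, permutation p = 0.00037, adjusted p = 0.00129, r = 0.59). Its r was 0.5322 with Gad2, 0.4965 with Sst, 0.3613 with Gad1 and -0.419 with Pvalb, with adjusted permutation p from 0.00153 to 0.0484. The sign of each was the same in all 4 groups. Pvalb thus ran against the striatal markers and the other members with them, in libraries of the same group.

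**Figure D4:**
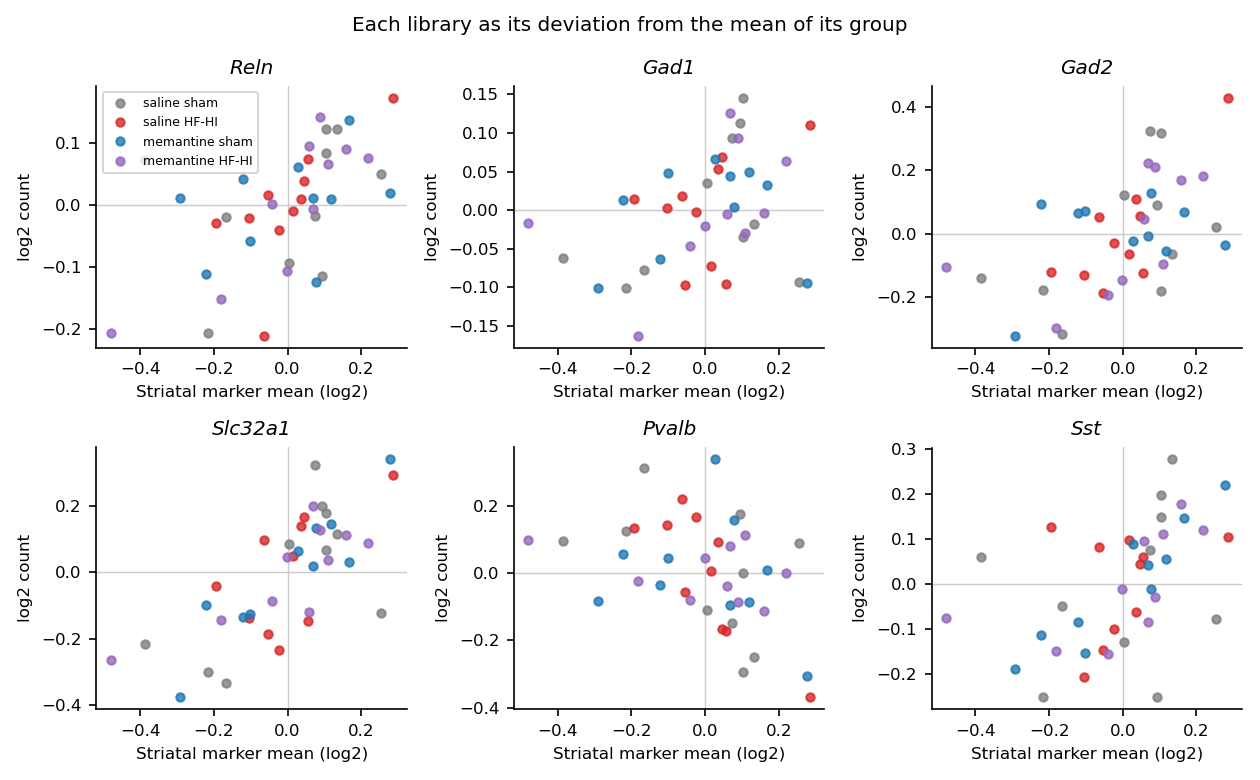
Log2 count of each gene (vertical axes) against the mean log2 level of 12 striatal markers (horizontal axes) in 40 libraries, each as its deviation from the mean of its group and coloured by group. Slc32a1 rises most closely with the markers (r = 0.7304) and Pvalb falls (r = -0.419).

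Of all other gene sums, those most like Reln over the 40 libraries were Map2k1, a MAP kinase kinase (r = 0.6992), Dgkb, a diacylglycerol kinase (0.6778), and Rps2, a ribosomal protein (0.6717). The least alike were Camta1, a transcription factor (-0.7059), Kcnab3, a potassium channel subunit (-0.6928), and Mast4, a kinase (-0.6608). Sst ranked 34 of 5874 and Pvalb 5756. The ranks are a description, since all libraries share depth scaling.

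Of the reelin pathway, 29 of 33 listed genes had a value. In saline HF-HI against saline sham 1 passed the unadjusted threshold upwards and 3 downwards, 13.79% against 10.7% of all gene sums, 0 passed the adjusted one, and the median log2 difference was 0.02. With the striatal covariate 1 higher and 1 lower gene passed, where 6.01% of all gene sums did. The receptors and the adaptor did not pass. Vldlr went from 1603.2 ± 401.4 to 1771.0 ± 407.5 normalised counts, Lrp8 from 1625.8 ± 254.2 to 1486.7 ± 445.8 and Dab1 from 1713.2 ± 97.7 to 1650.7 ± 118.0, with adjusted limma p from 0.7184 to 0.876.

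Among the other listed pathway genes, Cdk5, a kinase that phosphorylates Dab1, rose from 1254.1 ± 50.44 to 1308.7 ± 58.39 normalised counts at the unadjusted threshold only (adjusted limma p = 0.4545). Map1b, a microtubule-associated protein, fell from 43142.7 ± 1371.7 to 41613.2 ± 1108.7 (adjusted p = 0.2965), and Efnb3, an ephrin that binds reelin, from 931.0 ± 92.56 to 842.1 ± 84.93 (adjusted p = 0.3959). The kinase Src was the other lower gene, with a log2 difference of -0.25 ± 0.12 (adjusted p = 0.4291). In memantine HF-HI against memantine sham 1 of 29 pathway genes was lower and 0 higher at the unadjusted threshold (3.448% against 4.37% of all gene sums).

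Of 36 other interneuron markers only 10 had a value, and 3 fell at the unadjusted threshold, where 5.58% of all gene sums were lower, with 0 adjusted. With the striatal covariate 1 of the 10 passed, where 6.01% of all gene sums did. Nos1, the neuronal nitric oxide synthase of a sparse interneuron class, went from 1159.3 ± 242.7 to 942.8 ± 121.5 normalised counts (adjusted limma p = 0.2225) and Dlx6os1, a noncoding RNA of the Dlx5 and Dlx6 locus, from 856.6 ± 74.84 to 779.6 ± 94.61 (adjusted p = 0.3683). Calb1, the calcium buffer calbindin and also a hippocampal marker, went from 2325.1 ± 125.5 to 2171.7 ± 147.4 (adjusted p = 0.4261). The median over the 10 was a log2 difference of 0.0070, with 5 of 10 below 0. Striatal neurons express Nos1, Dlx6os1 and Calb1 as well. The interaction was above 0 for Dlx6os1, at 0.20 ± 0.08 log2 units (adjusted p = 0.999). Its memantine sham mean, 778.9 ± 52.36 normalised counts, was already as low as that of saline HF-HI, and memantine HF-HI was at 810.1 ± 64.11.

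Of 13 GABA handling genes with a value 4 were lower and 1 higher at the unadjusted threshold (38.46% against 10.7% of all gene sums) and 0 at the adjusted one. Their median log2 difference was -0.06, with 10 of 13 below 0. With the striatal covariate 0 of 13 passed the unadjusted threshold, where 6.01% of all gene sums did. Aldh5a1, which ends GABA breakdown, fell from 1991.9 ± 95.27 to 1892.3 ± 78.28 normalised counts (adjusted limma p = 0.3428) and Pdxk, which makes the cofactor of the GAD enzymes, from 2553.7 ± 274.8 to 2315.7 ± 157.9 (adjusted p = 0.3553). Glul, the glutamine synthetase of astrocytes, rose from 25422.1 ± 1359.1 to 26359.5 ± 631.1 (adjusted p = 0.4271). Gphn, which encodes the scaffold gephyrin of inhibitory synapses, had a log2 difference of -0.06 ± 0.03 (adjusted p = 0.4545).

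Of the perineuronal net list, the matrix around parvalbumin cells, 5 of 11 genes had a value. Among them Ptprz1 fell from 5210.0 ± 415.1 to 4799.7 ± 211.4 normalised counts (adjusted limma p = 0.2635). Of 13 cortical excitatory markers 1 rose, Neurod6, a transcription factor, from 654.5 ± 107.9 to 757.3 ± 111.2 (adjusted p = 0.392). Of 8 astrocyte markers 1 rose, Gfap, the astrocytic intermediate filament, from 1253.4 ± 229.7 to 1546.5 ± 347.4 (adjusted p = 0.3069), and it rose under memantine too, from 1178.6 ± 145.8 to 1613.1 ± 256.6 (adjusted p = 0.266). These counts stand beside the 10.7% of all gene sums called under saline impact, to which the shares of the excitatory (7.692%) and astrocyte (12.5%) lists are close. Of 4 thalamic and 8 oligodendrocyte markers 0 passed, and of 3 hippocampal markers Calb1 alone did.

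**Figure D5:**
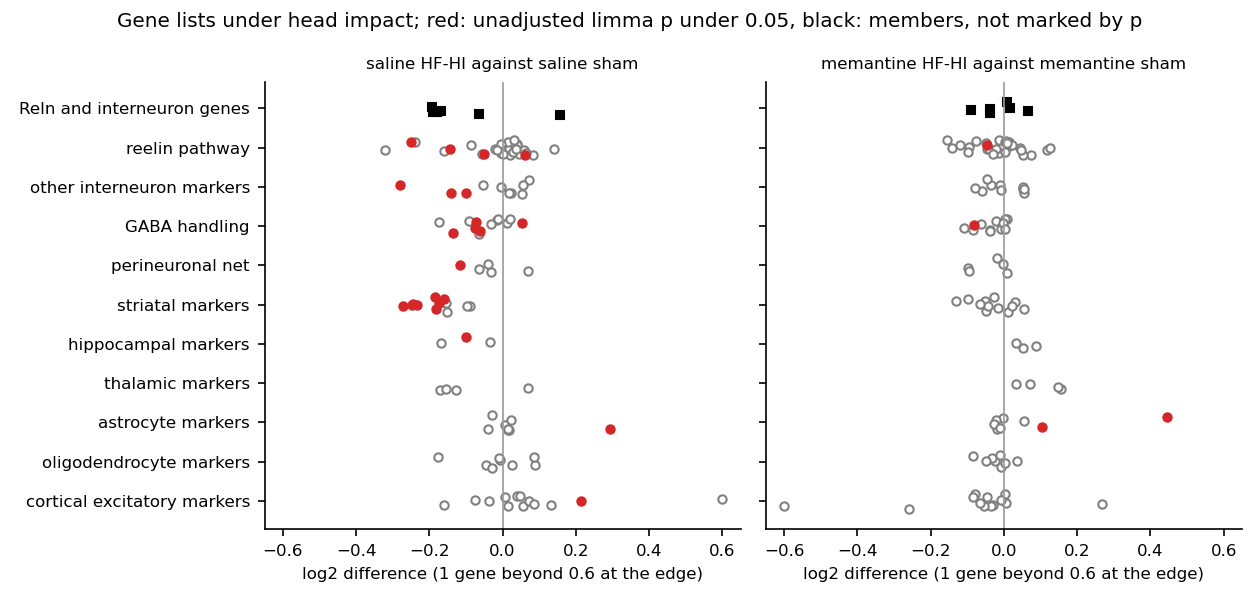
Log2 difference of HF-HI against sham (horizontal axes) for the genes of each list under saline (left) and memantine (right), 1 mark per gene. Red marks the unadjusted limma p under 0.05, black squares are Reln and the interneuron genes, and 1 gene per panel beyond 0.6 is drawn at the edge. The striatal markers lie left of 0 under saline (12 of 12) and around 0 under memantine.

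With members left out, 6 listed genes passed the unadjusted threshold in memantine sham against saline sham, where 7.9% of all gene sums did. Between the HF-HI groups, memantine against saline, 3 did, where 3.68% of all gene sums did. These are counts of genes over all lists and not shares, so no excess over all gene sums is read from them. The genes that follow are named by the rule given with the processing and only as a description. In memantine sham against saline sham Calb1 was lower, at 2100.9 ± 155.3 against 2325.1 ± 125.5 normalised counts (adjusted limma p = 0.3902). Between the HF-HI groups Ppp1r1b, which encodes DARPP-32 of striatal neurons, was higher with memantine, at 3295.7 ± 434.6 against 2863.2 ± 254.9 (adjusted p = 0.9961). Lamp5, a marker of neurogliaform interneurons that is also in the cortical excitatory list, was lower there. It was at 1831.2 ± 145.8 against 2036.4 ± 189.7 (adjusted p = 0.9961).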

How the data were processed

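Cortical RNA was measured in 40 libraries, 10 per group, as labelled; the labels do not say whether each is 1 animal, so p-values measure the spread between these libraries. According to the study's methods, the authors aligned stranded, rRNA-depleted 100-base paired reads to mm10 with STAR, counted transcripts with eXpress and normalised with DESeq2. The submitters' processing notes name HISAT2 and StringTie instead. The series' design text gives 4 samples per group. The authors deposited log2-scale values, a variance-stabilising transformation of normalised counts made by the authors, for 6831 transcripts with a mean count of at least 549.2; the filter is not given in the sources used here. Inverting it with a floor of 10.36 gave whole steps (within 0.1 of a step) for 100.0% of values under 5000, 92.4% of all. Size factors ran from 0.859 to 1.141.

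RefSeq symbols matched 99.82% of transcripts, and normalised counts were summed per gene (5875 sums). Differences were fitted with limma 3.58.1 in R 4.3.3 (trended eBayes, two-sided, 1 term per group, 5 contrasts) on log2(sum + 1) over all sums, with Benjamini-Hochberg adjustment and thresholds of unadjusted p 0.05 and adjusted p 0.1. The pseudocount slightly understates changes of low sums. Correlations used log2 sums with group means removed and 100000 permutations within groups, and were chosen after the data had been seen. The fit was tested on simulated data.

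The members and lists were chosen with earlier results of these data known. From each list the 2 risers and 2 fallers with the smallest p under saline impact are named, over all lists the first riser and faller of each other contrast, the reelin receptors and adaptor, and the genes most and least like Reln over libraries; Src, Gphn and Drd1 were named after their values were seen, and some genes that the rule names are not reported here. Alternatives were deposited transcript values, a pseudocount of 100, gene sums of at least 1000, median centring, quantile normalisation, array weights, voom, a replicate block, the striatal marker mean as covariate, and each library left out.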

Additional observations from a re-analysis of the deposited data

Results flagged for a closer look

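In saline HF-HI, 1 library (replicate 1) had a Gad2 count of 5576.2, far above the other 9. In memantine sham, 1 library (replicate 8) had a Gad2 count of 3472.5, far below the rest. Over 24 combinations of member and group 2 had such a library, and about 1 in 20 would by chance.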

How the results depend on the processing

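Over 9 alternatives the member differences kept their sign in 243 of 255 values, and over 40 fits that left out 1 library each in 1184 of 1200. Of the 12 and 16 sign changes, 9 and 16 were in differences whose 95% interval included 0, among them 4 under the striatal covariate in memantine against saline under HF-HI (Gad1, Pvalb, Reln and Slc32a1). The other 3 were Reln taken from NM_011261 alone. On the deposited variance-stabilised scale, which compresses differences, they were 0.015 under saline impact, 0.0077 for memantine sham against saline sham and -0.052 for the interaction. The gene sum adds NM_001310464, in which the lower count lay. Pvalb, Slc32a1 and Sst could not be fitted with sums of at least 1000.

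Of the listed genes, members left out, 23 passed the unadjusted threshold in saline impact, 4 in memantine impact, 3 in memantine against saline under HF-HI, 6 in sham and 2 for the interaction. Of all gene sums 10.7%, 4.37%, 3.68%, 7.9% and 3.59% passed, in the same order. The counts are given to compare settings only. The striatal covariate left 5 and 0 in the first and last. In the first, the share of all gene sums went from 10.7% to 6.01%. The covariate is the mean of 12 striatal markers, 8 of which were among the 23. Their loss was largely set by its construction, so the fall to 5 is not read as a result. Array weights gave 7, 8 and 6 in memantine impact, memantine against saline under HF-HI and the interaction. Transcript values gave 4 and sums of at least 1000 gave 1 for the interaction. The cause was not tested. Leaving out 1 library gave 14 to 26, 3 to 8, 1 to 13, 5 to 10 and 2 to 8, in the same order. Saline impact fell to 14 without saline sham replicate 10 and to 15 without saline sham replicate 3 or 6 or saline HF-HI replicate 2.

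Replicate numbers did not pair the libraries: 14 of 60 same-number pairs had r over 0.1 (median 0.00283), and 5 of 40 libraries matched best a library of their number. With the number as a block the counts of listed genes were 22, 4, 2, 8 and 3, the counts of members called stayed as they were, and the member difference of Reln under saline impact was -0.19 ± 0.05.

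A count of 549.2, the lowest mean, carries a counting error of 4.27%, so depth limits small differences of the low sums.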
